A study of Mus musculus with 8 samples.

Results

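The ubiquitin-conjugating enzymes (E2) of mouse lens fiber cells (FC) were taken as every protein-coding gene whose symbol is Ube2 followed by a letter. This rule reads symbols and gene type only, and 38 of the 22026 protein-coding rows of the table met it. For 27 of the 38 the mean reached 1.0 FPKM (a count of fragments scaled to transcript length and library depth) in either group, and these 27 were tested among 9794 genes of all kinds. The rule takes in Ube2cbp, an E2C-binding protein that is not itself an E2, and leaves out enzymes with the E2 fold under other symbols, such as Cdc34, Atg3 and Ufc1.

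The libraries came from C57BL/6 mice (C57BL/6J in the study's methods) kept in a whole-body smoke chamber from late gestation and exposed to cigarette smoke (CS) for 5 hours a day, 5 days a week, over 3.5 months, and from untreated control (Ct) mice of matched age. FC, the elongated crystallin-filled cells that form the bulk of the lens, were dissected away from the epithelial layer before RNA was extracted. Each group had 4 libraries, and each library held FC from the right eyes of 4 mice. The study used male and female replicates in both groups, but the labels do not give the sex of a library. The pools are labelled biological replicates, so the p-values measure the spread between pools rather than between single mice.

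Ubiquitin is activated by an E1 enzyme, handed to the catalytic cysteine of an E2, and passed on to a substrate with the help of an E3 ligase. Which E2 takes part shapes what is built, since some E2 start a ubiquitin chain, some extend chains of a particular linkage, and a few carry NEDD8, SUMO or ISG15 in place of ubiquitin. In the lens, whose inner fibers lose their organelles and keep their proteins for life, the ubiquitin-proteasome system is studied as a route for the removal of damaged or regulatory proteins.

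A common feature of the family, though not one found in every member, is the histidine-proline-asparagine triplet that stands a few residues before the catalytic cysteine. In the coding sequences of GENCODE M21 (build GRCm38, the build in the submitters' notes), 20 of 37 members held the triplet with 7 residues between it and a cysteine, among them 14 of the 27 tested. The pattern was not found with this spacing in the other 17. These include Ube2v1 and Ube2v2, which are E2 variants with no catalytic cysteine, and the large Ube2o. They also include Ube2e1, Ube2e2, Ube2e3, Ube2h and Ube2k. Other triplets and spacings were not searched for, so lack of this pattern does not mark an E2 as inactive. The windows below are spliced coding sequence, 5′ to 3′, with the codons of the triplet and of the cysteine in capitals. They show the most abundant E2 in these cells, both E2 of NEDD8, the RAD6 pair and the tested E2 with the largest fold change.
Ube2m (chr7:13035120-13038275, minus strand): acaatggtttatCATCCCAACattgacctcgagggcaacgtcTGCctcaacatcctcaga
Ube2f (chr1:91250304-91290337, plus strand): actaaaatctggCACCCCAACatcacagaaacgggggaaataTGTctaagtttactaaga
Ube2s (chr7:4794546-4812590, minus strand): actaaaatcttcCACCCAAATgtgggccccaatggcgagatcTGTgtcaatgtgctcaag
Ube2d3 (chr3:135438149-135468198, plus strand): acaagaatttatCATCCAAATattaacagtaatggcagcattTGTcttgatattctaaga
Ube2b (chr11:51985497-52000762, minus strand): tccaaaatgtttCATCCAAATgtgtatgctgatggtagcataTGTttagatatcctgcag
Ube2a (chrX:36873900-36884222, plus strand): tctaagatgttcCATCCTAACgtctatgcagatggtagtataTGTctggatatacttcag
Ube2l6 (chr2:84798828-84810335, plus strand): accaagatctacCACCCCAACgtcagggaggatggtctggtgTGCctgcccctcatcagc

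The FC label held in every library. All 14 FC markers passed the filter, with Crybb2, a beta-crystallin, at 139808 to 152073 FPKM and Mip, the fiber water channel, at 2364 to 2532 FPKM, and 2 of the 14, Crygb and Hsf4, had an unadjusted limma p under 0.05, both higher in CS-exposed FC. Relative depth, taken from the step size of the FPKM values, ran from 0.910 to 1.17 times that of the first Ct library. Signs of other cells differed between groups: 8 of 9 rod photoreceptor markers and all 4 tested retinal pigment epithelium markers had a limma p under 0.05 in the direction of higher levels in CS-exposed FC, as did 1 of 2 tested erythroid markers. At this unadjusted threshold 2.75% of all genes tested were higher in CS-exposed FC. None of the markers, those of FC included, passed after adjustment. Summed levels were 10.9 to 29.1 FPKM in Ct and 31.4 to 90.0 FPKM in CS-exposed libraries for rods, and 0.922 to 1.85 and 2.70 to 25.6 FPKM for pigment epithelium, with Best1 at 0 throughout. Lens epithelium markers summed to 213 to 337 FPKM in Ct and 195 to 257 FPKM in CS-exposed libraries, and erythroid markers to 0.265 to 1.73 and 0.50 to 22.8 FPKM. Immune cell markers summed to 1.21 FPKM at most, with Cd14 at 0. The part these cells play in the E2 values was not tested. Libraries of a group also differed in genes that mark sex: Xist, read from the inactive X chromosome, was 41.1 to 48.99 FPKM in libraries 3 and 4 of both groups and 0.0113 FPKM or less in the other 4. Ct library 3 stood apart, since it held the Y-linked Ddx3y at 2.28 FPKM beside its Xist, where Ddx3y was 6.25 to 7.92 FPKM in the libraries low in Xist and 0.0953 FPKM or less in the other libraries high in it. Without Ct library 3, Ube2l6 was the only member with an unadjusted limma p under 0.05, or 3.7% of the members beside 4.28% of all genes tested.

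The E2 genes covered a wide range of levels, and a few of them made up most of the family's RNA. Ube2m, the E2 of NEDD8, was the highest at a mean of 206 FPKM over the 8 libraries, and Ube2s, which extends chains for the anaphase-promoting complex, followed at 162 FPKM. Together they made up 43.9 to 47.0% of the summed E2 level in each library. Ube2d3 stood at 87.5 FPKM, Ube2b at 56.0 FPKM and Ube2o at 44.7 FPKM, and these 5 genes kept this order in every library. The mean of Ube2m was 112 times that of Ube2v2, the lowest member tested.

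Below the leading 5 the order was less sharp. Of the 26 pairs of neighbours in the order of mean level, 7 had ranges over the 8 libraries that did not touch and 19 had ranges that overlapped. Ube2d2a at 28.4 FPKM, Ube2e3 at 27.1 FPKM and Ube2g2 at 24.1 FPKM overlapped along the order, and they stood clear of Ube2k at 17.4 FPKM, which in turn stood clear of Ube2r2 at 14.8 FPKM. From Ube2r2 down to Ube2v2 at 1.84 FPKM every pair of neighbours overlapped. The median of the 27 mean levels was 11.9 FPKM, against 4.68 FPKM over all genes tested, and 15 of the 27 reached 10 FPKM, or 55.6% against 28.1% of all genes tested.

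**Figure D1:**
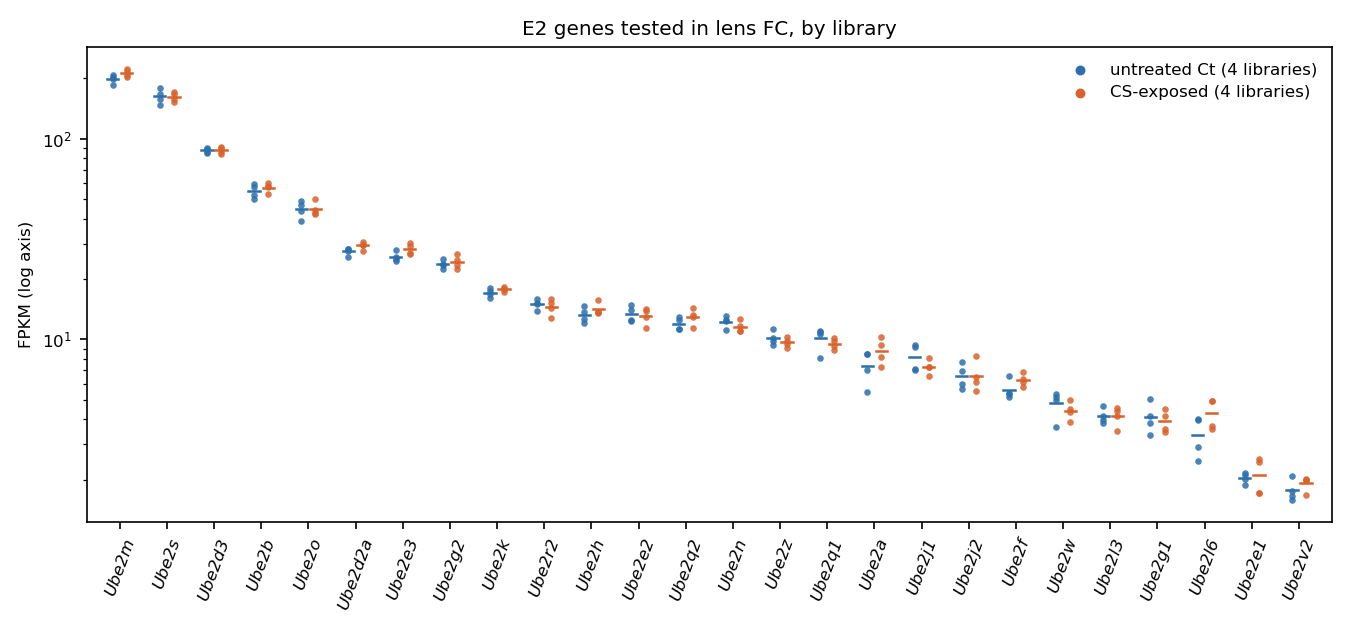
Level of 26 of the 27 tested E2 genes in FPKM on a log axis, with each point 1 library, short lines the group means, blue the 4 untreated Ct libraries and orange the 4 CS-exposed libraries. Ube2m and Ube2s lie above 100 FPKM in every library, and in no gene do the points of the 2 groups separate completely.

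The other 11 members were below the filter. Ube2d1, a broad-range E2, was read at 0.510 to 1.26 FPKM, and Ube2ql1 at 0.385 to 1.0002 FPKM. Ube2cbp reached 0.450 FPKM, Ube2v1 0.348 FPKM, Ube2t, the E2 of the Fanconi anaemia pathway, 0.281 FPKM, and Ube2c, which starts chains for the anaphase-promoting complex, 0.275 FPKM. Ube2d2b, Ube2d4, Ube2dnl1, Ube2dnl2 and Ube2u were listed at 0 in all 8 libraries. Of Ube2v1, 69.1% of the exon bases are shared with other annotated genes, 61.5% on the same strand with the readthrough gene Gm20431, which was itself listed at 0. Reads on these bases cannot be given to Ube2v1 alone, so its level is uncertain.

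No E2 gene passed the test between CS-exposed and untreated Ct FC. None of the 27 had an unadjusted limma p under 0.05, while 4.83% of all genes tested did, 2.75% higher and 2.08% lower in CS-exposed FC. None passed after Benjamini-Hochberg adjustment over the 9794 genes, where the share of all genes was 0.0102%, and the lowest adjusted p of a member was 0.956 (limma). In no member did the CS-exposed libraries all lie above or all below the Ct libraries, against 3.08% of all genes tested. With limma-voom on reads recovered from the FPKM values the counts of members with an unadjusted p under 0.05 and with an adjusted p under 0.05 were also 0. In pooled tissue, fewer cells of a kind and less RNA per cell cannot be told apart.

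The intervals bound what could have gone unseen. The fitted fold changes, as CS-exposed minus Ct on the log2(FPKM + 0.1) scale, ran from -0.14 for Ube2j1 to 0.37 for Ube2l6, with 16 above 0 and 11 below. Their median was 0.02, against 0.00 over all genes tested, and the median size without regard to sign was 0.08 for members and 0.08 for all genes tested. The 95% interval lay within 1.2-fold either way for 13 of the 27, within 1.5-fold for 25 and within 2-fold for all 27. The outermost bounds were 0.757-fold, for Ube2w, and 1.68-fold, for Ube2l6. The summed level of all members was 790 ± 27.3 FPKM in Ct (SD, n = 4) and 813 ± 26.3 FPKM in CS-exposed FC (SD, n = 4), a ratio of 1.03, and the groups overlapped, with Ct at 758 to 821 FPKM and CS-exposed FC at 782 to 846 FPKM.

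**Figure D2:**
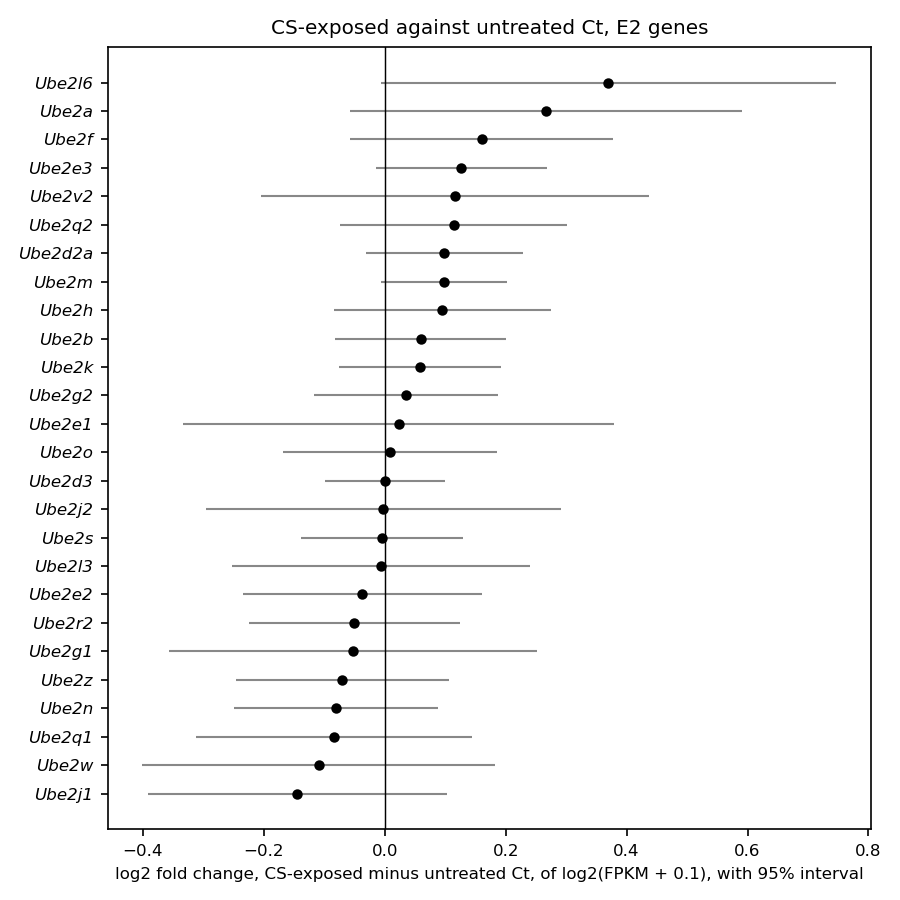
Fitted log2 fold change of 26 of the 27 tested E2 genes, CS-exposed minus untreated Ct on the log2(FPKM + 0.1) scale, with its 95% interval from limma over 4 libraries per group. Every interval crosses 0, and those of Ube2l6, Ube2m and Ube2e3 reach least far below it.

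The E2 of ubiquitin-like modifiers made up 28.3% of the summed E2 level, nearly all of it Ube2m. Ube2m stood at 204, 207, 186 and 199 FPKM in the Ct libraries and at 208, 203, 224 and 218 FPKM in the CS-exposed libraries. Of the CS-exposed libraries 3 lay above every Ct library and the remaining one lay among them. The means were 199 ± 9.14 and 213 ± 9.60 FPKM (SD, n = 4 each), and the fitted log2 fold change was 0.10 with an SE of 0.05 (limma p = 0.0625, adjusted p = 0.956, exact permutation p = 0.114). The exact permutation p is two-sided over the 70 assignments of the libraries, here and for the other genes, and with 4 against 4 libraries cannot go below 0.0286. Without CS library 2 the groups did not overlap and the unadjusted limma p was 0.0355, and without Ct library 2 it was 0.0464, with adjusted p values of 0.921 and 0.946. Without any of the other 6 libraries it was 0.0620 to 0.171, and the log2 fold change ran from 0.07 without Ct library 3 to 0.12 without CS library 2.

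NEDD8 has a second E2, Ube2f, which loads cullin 5 together with the RING protein Rnf7, whereas Ube2m works with Rbx1 on the other cullins. Ube2f was read at 6.54, 5.31, 5.17 and 5.41 FPKM in Ct and 6.10, 6.84, 5.76 and 6.35 FPKM in CS-exposed libraries. The first Ct library lay within the range of the CS-exposed libraries, and the other 3 Ct libraries lay below all of them. The log2 fold change was 0.16 with an SE of 0.10 (limma p = 0.134, adjusted p = 0.956, exact permutation p = 0.143), and without Ct library 1 it was 0.24 with an unadjusted p of 0.0311 and an adjusted p of 0.907. Without any of the other 7 libraries it was 0.12 to 0.20, with an unadjusted p of 0.0895 to 0.297. The level of Ube2m was 29.7 to 39.0 times that of Ube2f in the same library. The RING partners stood in the opposite order, with Rnf7 at 37.1 to 44.2 FPKM and Rbx1 at 19.5 to 23.6 FPKM, so that Rnf7 was 1.67 to 2.25 times Rbx1. The coding sequences of Ube2f and Ube2m were 58.1% identical over 508 aligned bases.

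The rest of the NEDD8 cascade was also present. Nedd8 itself ran from 85.9 to 97.2 FPKM, and Ube2m was 2.05 to 2.56 times as high. Of the E1 for NEDD8, Uba3 was read at 8.26 to 12.3 FPKM and Nae1 at 2.79 to 4.66 FPKM. Among the 18 genes of the cullin-RING core and neddylation list, all tested, none was higher and 1 was lower in CS-exposed FC at an unadjusted limma p under 0.05 (2.08% of all genes tested were lower), with a median log2 fold change of -0.01. That gene was Cul2, the scaffold of the ligase that holds the von Hippel-Lindau protein, at 3.84, 3.76, 3.78 and 3.51 FPKM in Ct and 3.45, 2.85, 3.28 and 2.83 FPKM in CS-exposed libraries. All 4 CS-exposed libraries lay below all Ct libraries, and the log2 fold change was -0.26 with an SE of 0.11 (limma p = 0.0325, adjusted p = 0.956, exact permutation p = 0.0286). Without Ct library 1, 2 or 3, or without CS library 2 or 4, the unadjusted p of Cul2 was above 0.05, at 0.0621 to 0.0832. The highest genes of the list were Skp1a, an adaptor of cullin 1 ligases, at 61.3 to 71.2 FPKM and Rnf7.

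Ube2l6, the E2 of the interferon-induced modifier ISG15, had the largest fold change of the 27 tested members. It stood at 2.90, 3.99, 3.94 and 2.48 FPKM in Ct and 4.95, 3.72, 3.59 and 4.92 FPKM in CS-exposed libraries. CS libraries 1 and 4 were above every Ct library, and CS libraries 2 and 3 lay between the Ct values. The means were 3.33 ± 0.757 and 4.30 ± 0.741 FPKM (SD, n = 4 each), and the log2 fold change was 0.37 with an SE of 0.17 (limma p = 0.0535, adjusted p = 0.956, exact permutation p = 0.171). The unadjusted p was between 0.0258 and 0.0419 when Ct library 2 or 3 or CS library 2 or 3 was left out and between 0.125 and 0.166 when any of the other 4 was. The log2 fold change ran from 0.24 without Ct library 4 to 0.46 without Ct library 2. Ube2l6 rested on 70 to 166 reads per library, the scale at which counting alone gave a coefficient of variation of 8.93%, against 19.7% within groups. The other genes of the ISG15 route were near 0: Isg15 reached 0.516 FPKM, its E1 Uba7 0.273 FPKM and Herc6, its ligase in mouse, 0.278 FPKM.

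Among the SUMO modifiers, Sumo2 was read at 37.0 to 44.8 FPKM and Sumo3 at 34.3 to 39.8 FPKM. Of the 13 SUMO ligases and proteases tested, 1 was higher and none lower in CS-exposed FC at an unadjusted limma p under 0.05, where 2.75% of all genes tested were higher and 2.08% lower. This was Pias4, a SUMO ligase, at 4.48, 3.86, 3.68 and 4.90 FPKM in Ct and 4.63, 4.38, 6.16 and 5.97 FPKM in CS-exposed libraries. CS libraries 3 and 4 were above every Ct library and the other two lay among them (log2 fold change 0.31, SE 0.14, limma p = 0.0458, adjusted p = 0.956, exact permutation p = 0.143). Leaving out any library but Ct library 4 and CS libraries 1 and 2 took the unadjusted p of Pias4 above 0.05, to 0.0516 to 0.135, and with all 8 libraries it was 0.0507 to 0.0612 with no filter, at 5 FPKM, with median centring, with quantile normalization and without the trend. The highest genes of the list, Pias2 at 14.7 to 18.1 FPKM and Senp3, a SUMO protease, at 10.3 to 12.8 FPKM, did not pass.

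**Figure D3:**
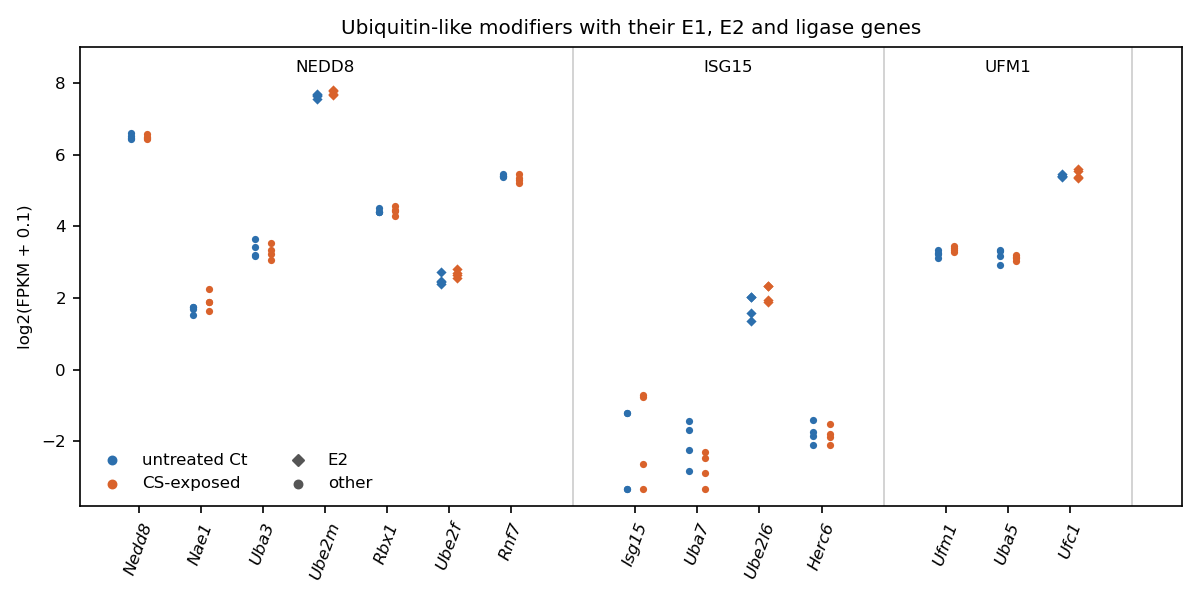
Level on the log2(FPKM + 0.1) scale of NEDD8, ISG15 and UFM1 genes with their E1, E2 (diamonds) and ligase genes, each point 1 library, blue untreated Ct and orange CS-exposed. Of the E2 drawn, Ube2m stands above Nedd8, Ube2l6 above Isg15 and Ufc1 above Ufm1, while Ube2f stands below Nedd8. Ubiquitin, SUMO and autophagy modifiers were not drawn.

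Ube2s and Ube2c serve the anaphase-promoting complex, the ligase that drives exit from mitosis, and they stood far apart in level. Ube2s was read at 147, 179, 159 and 167 FPKM in Ct and 167, 153, 171 and 157 FPKM in CS-exposed libraries. Every CS-exposed value fell inside the Ct range, and the log2 fold change was 0.00 with an SE of 0.06 (limma p = 0.940, adjusted p = 0.995, exact permutation p = 0.914). Ube2c was at most 0.275 FPKM, from 0 to 14 recovered reads per library, counts too low for a close ratio to Ube2s. Of the coding bases of Ube2c and Ube2s, 57.7% were identical over 529 aligned bases. Of the exon bases of Ube2c, 22.8% overlap Tnnc2 on the other strand, and of those of Ube2s 3.56% overlap Rpl28 on the other strand. Rpl28 was far more abundant, with a log2 mean FPKM of 11.1 against 7.34 for Ube2s, and the strand setting of counting is not given. What this overlap does to the level of Ube2s was not tested.

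The subunits of the complex were present, and genes of dividing cells were low. Anapc13, a small subunit, stood at 61.8 to 78.6 FPKM and Anapc5 at 29.8 to 35.1 FPKM, so Ube2s was 2.07 to 2.75 times Anapc13. Of its activators, Fzr1, which acts from late mitosis into G1, was read at 6.21 to 8.61 FPKM and Cdc20, which acts earlier in mitosis, at 0.145 to 0.924 FPKM. None of the 14 tested genes of the complex had an unadjusted limma p under 0.05, and their median log2 fold change was 0.03. The 11 markers of cycling cells summed to 2.23 to 2.95 FPKM in Ct and 2.03 to 3.78 FPKM in CS-exposed libraries, most of it Aurka at 0.946 to 2.84 FPKM, and Mki67 and Top2a were at most 0.246 and 0.255 FPKM.

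The D and E classes, which work with many RING and HECT ligases, made up 20.4% of the summed E2 level together with Ube2w, and Ube2d3 was the most abundant of them. It stood at 89.9, 89.4, 86.0 and 84.5 FPKM in Ct and 90.6, 85.7, 89.5 and 84.1 FPKM in CS-exposed libraries. The group ranges nearly coincided, with means of 87.5 ± 2.64 and 87.5 ± 3.06 FPKM (SD, n = 4 each). Its log2 fold change was 0.00 with an SE of 0.05 (limma p = 0.998, adjusted p = 0.9995, exact permutation p = 0.971), and the 95% interval ran from 0.934-fold to 1.07-fold, the only one of the 27 within 1.1-fold either way. The sign of this near-zero value turned under other scalings.

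Ube2d2a, whose coding sequence was 84.1% identical to that of Ube2d3 over 441 bases, was read at 28.3, 28.3, 25.6 and 27.7 FPKM in Ct and 29.7, 30.7, 29.6 and 27.6 FPKM in CS-exposed libraries. CS libraries 1, 2 and 3 lay above every Ct library and CS library 4 lay among them. Its log2 fold change was 0.10 with an SE of 0.06 (limma p = 0.122, adjusted p = 0.956, exact permutation p = 0.114), and the groups did not overlap without CS library 4. Ube2d3 stood 2.79 to 3.36 times as high as Ube2d2a. The ratio of Ube2d2a to Ube2d3 was 0.314 ± 0.0124 in Ct and 0.337 ± 0.0149 in CS-exposed FC (SD, n = 4 each), and the two-sided exact permutation test over 70 assignments gave p = 0.0571, or 0.343 after adjustment over the 8 ratios compared. Without Ct library 4 that exact p was 0.0286, the smallest that 3 against 4 libraries allow. Stretches nearly identical to 17.9% of the Ube2d2a transcript and 16.2% of the Ube2d3 transcript lie in annotated copies such as Gm9762 and Gm15361, so a part of their reads may be shared with these.

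The E class was led by Ube2e3, at 24.7, 25.3, 25.6 and 27.8 FPKM in Ct and 27.1, 26.5, 30.3 and 29.2 FPKM in CS-exposed libraries, a gene picked out after its values were seen. Ct library 4 lay among the CS-exposed libraries and the other 3 Ct libraries lay below them all (log2 fold change 0.13, SE 0.06, limma p = 0.0746, adjusted p = 0.956, exact permutation p = 0.0857). Without Ct library 4 the groups of Ube2e3 did not overlap, and its unadjusted p was under 0.05 without that library and without CS library 2 and 0.0676 to 0.196 without any of the other 6. With the Xist level of each library as a covariate, an alternative chosen after the data were seen, its log2 fold change was 0.13 with an unadjusted limma p of 0.0446 and an adjusted p of 0.949. Ube2e2 was read at 11.5 to 14.9 FPKM and Ube2e1 at 1.71 to 2.54 FPKM, and Ube2e3 was 10.4 to 17.7 times Ube2e1. Of the exon bases of Ube2e1, 16.1% overlap Nkiras1 on the other strand. Ube2w, which attaches ubiquitin to the amino terminus of proteins, stood at 5.004, 5.18, 3.65 and 5.37 FPKM in Ct and 4.48, 3.85, 5.004 and 4.32 FPKM in CS-exposed libraries. Ct library 3 was the lowest of all 8 and the other 3 Ct libraries were level with or above the CS-exposed ones, with a log2 fold change of -0.11 and an SE of 0.13 (limma p = 0.430, adjusted p = 0.985, exact permutation p = 0.457). Without Ct library 3 the Ct libraries of Ube2w lay above the CS-exposed ones, but Ct library 1 exceeded CS library 3 by far less than the worth of 1 read.

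Ube2a and Ube2b are the mammalian RAD6 genes, which ubiquitinate histone H2B with Rnf20 and Rnf40 and N-degron substrates with Ubr1 and Ubr2. Ube2b was read at 59.2, 57.8, 52.2 and 50.3 FPKM in Ct and 57.9, 52.9, 57.7 and 60.02 FPKM in CS-exposed libraries. The groups overlapped over most of their range, with a log2 fold change of 0.06 and an SE of 0.06 (limma p = 0.377, adjusted p = 0.981, exact permutation p = 0.371). With 1 library left out, the log2 fold change of Ube2b ran from 0.02 without Ct library 4 to 0.10 without Ct library 1. Ube2a was read at 8.47, 8.41, 7.01 and 5.45 FPKM in Ct and 10.3, 7.30, 9.32 and 8.20 FPKM in CS-exposed libraries. CS libraries 1 and 3 were above every Ct library, while Ct library 4 was the lowest of all 8. The means of Ube2a were 7.34 ± 1.43 and 8.79 ± 1.32 FPKM (SD, n = 4 each), and the log2 fold change was 0.27 with an SE of 0.15 (limma p = 0.0984, adjusted p = 0.956, exact permutation p = 0.200). Without CS library 2 the log2 fold change was 0.35 with an unadjusted p of 0.0425 and an adjusted p of 0.921, and without Ct library 4 it was 0.13 with an unadjusted p of 0.317. Ube2a lies on the X chromosome, and with the Xist level as a covariate its log2 fold change was 0.27 (limma adjusted p = 0.949).

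The RAD6 pair was uneven in every library, with Ube2b at 5.61 to 9.23 times Ube2a, although their coding sequences were 77.6% identical over 456 bases. The ratio of Ube2a to Ube2b was 0.133 ± 0.0170 in Ct and 0.154 ± 0.0201 in CS-exposed FC (SD, n = 4 each; two-sided exact permutation p = 0.229, adjusted over the 8 ratios 0.457). Their partners Rnf20 and Rnf40 were read at 5.24 to 7.56 and 5.56 to 7.01 FPKM, Wac, which binds both, at 16.2 to 19.8 FPKM, and Rad18, their partner in DNA damage tolerance, at 0.141 FPKM or less. None of the 5 partners tested had an unadjusted limma p under 0.05, with a median log2 fold change of -0.03.

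The E2 that build K48-linked chains, many of them at the endoplasmic reticulum (ER), made up 9.31% of the summed level, and all 6 were tested. Ube2g2, an E2 of ER-associated degradation, was read at 22.4 to 26.8 FPKM, Ube2k at 16.02 to 18.2 FPKM and Ube2r2, a paralogue of Cdc34, at 12.8 to 15.9 FPKM. Ube2j1, an E2 anchored in the ER membrane, had the largest negative fold change of the 27 tested members. It stood at 9.12, 7.001, 7.15 and 9.35 FPKM in Ct and 7.30, 6.60, 8.06 and 7.32 FPKM in CS-exposed libraries. Ct libraries 1 and 4 were above every CS-exposed library and the other two Ct libraries lay among them. The means were 8.15 ± 1.2498 and 7.32 ± 0.596 FPKM (SD, n = 4 each), and the fit gave a log2 fold change of -0.14 with an SE of 0.11 (limma p = 0.225, adjusted p = 0.956, exact permutation p = 0.314). Leaving out 1 library moved it from -0.21 without Ct library 2 to -0.08 without Ct library 4.

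The other ER membrane E2, Ube2j2, was read at 5.56 to 8.23 FPKM, and the ratio of Ube2j1 to Ube2j2 was 1.28 ± 0.365 in Ct and 1.13 ± 0.160 in CS-exposed FC (SD, n = 4 each; two-sided exact permutation p = 0.514). Ube2g2 was 4.996 to 7.53 times Ube2g1, which stood at 3.32 to 5.04 FPKM. The ER-associated ligases and their helpers held 13 tested genes, none with an unadjusted limma p under 0.05 and a median log2 fold change of 0.03. The highest was Vcp, the ATPase that pulls substrates out of the membrane, at 48.05 to 52.3 FPKM. Nploc4, a cofactor of Vcp, was 10.7 to 11.2 FPKM in Ct and 11.3 to 12.4 FPKM in CS-exposed libraries, so its groups did not overlap, yet its limma p was 0.159. It was named after its values were seen.

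K63-linked chains, used in signalling and DNA repair, are built by Ube2n in a dimer with Ube2v1 or Ube2v2. Ube2n was read at 11.1 to 13.04 FPKM in Ct and 11.02 to 12.6 FPKM in CS-exposed libraries, with a log2 fold change of -0.08 and an SE of 0.08 (limma p = 0.315, adjusted p = 0.976, exact permutation p = 0.343). Ube2v2 stood at 1.58 to 2.08 FPKM in Ct and 1.67 to 2.02 FPKM in CS-exposed libraries, and Ube2n was 5.32 to 7.91 times as high. The ratio of Ube2n to Ube2v2 was 7.05 ± 1.21 in Ct and 6.06 ± 0.482 in CS-exposed FC (SD, n = 4 each; two-sided exact permutation p = 0.200), and without Ct library 2 the exact p was 0.0286. Of the K63 ligases 7 were tested, led by Chfr at 7.46 to 9.87 FPKM and Traf6 at 3.92 to 5.20 FPKM, and none had an unadjusted limma p under 0.05. Their median log2 fold change was 0.08, the highest of the 11 partner lists, and the list summed to 24.96 to 27.1 FPKM in Ct and 27.5 to 28.7 FPKM in CS-exposed libraries, so that the sums, which were not tested, did not overlap.

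Ube2o, a large enzyme that acts as both E2 and E3 and clears ribosomal proteins from maturing red cells, was the fifth most abundant member. It stood at 49.1, 46.6, 38.8 and 43.8 FPKM in Ct and 44.3, 42.0, 50.3 and 42.5 FPKM in CS-exposed libraries. Ct library 3 was the lowest and CS library 3 the highest, with the rest intermixed (log2 fold change 0.01, SE 0.08, limma p = 0.914, adjusted p = 0.995, exact permutation p = 0.943). Erythroid markers summed to 22.8 FPKM in CS library 4 and to 4.23 FPKM or less in the other libraries, and Ube2o was 42.5 FPKM in CS library 4.

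The remaining members were intermediate in level. Ube2q1 was read at 10.7, 10.9, 10.99 and 8.09 FPKM in Ct and 9.26, 10.2, 9.82 and 8.81 FPKM in CS-exposed libraries. Ct libraries 1, 2 and 3 were above every CS-exposed library and Ct library 4 was below them all, with a log2 fold change of -0.08 and an SE of 0.10 (limma p = 0.436, adjusted p = 0.985, exact permutation p = 0.514). Without Ct library 4 the groups separated, with a log2 fold change of -0.19, an unadjusted p of 0.0403 and an adjusted p of 0.944, and without any of the other 7 libraries it was -0.12 to -0.04. The ratio of Ube2q1 to its paralogue Ube2q2 was 0.847 ± 0.0987 in Ct and 0.734 ± 0.0378 in CS-exposed FC (SD, n = 4 each; two-sided exact permutation p = 0.0857, adjusted 0.343), and without Ct library 4 its exact p was 0.0286.

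Ube2q2 stood at 11.2 to 14.3 FPKM, Ube2h at 12.02 to 15.7 FPKM, and Ube2z, which takes ubiquitin from the second E1 Uba6, at 9.07 to 11.3 FPKM. Ube2l3, the partner of RBR and HECT ligases, was read at 3.47 to 4.65 FPKM, with a log2 fold change of -0.01 and an SE of 0.11 (limma p = 0.957, adjusted p = 0.997, exact permutation p = 0.943). Of its exon bases, 28.6% overlap Ydjc on the other strand, and 5 annotated copies hold stretches of its transcript. Copies also cover 63.1% of the Ube2h transcript and 32.9% of that of Ube2q2, so their levels are less certain than those of the 17 tested members with no such copy.

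Upstream of the E2 enzymes, Uba1, the main E1 of ubiquitin, stood at 33.3 to 42.7 FPKM, or 0.160 to 0.229 times Ube2m, and Sae1, a subunit of the SUMO E1, at 27.3 to 33.6 FPKM. Uba6 was read at 1.21 to 1.62 FPKM. None of the 9 E1 genes tested had an unadjusted limma p under 0.05, with a median log2 fold change of -0.06. Among E2-fold genes under other symbols, Atg3, the E2 of autophagy, stood at 72.9 to 84.0 FPKM, Ufc1, the E2 of UFM1, at 40.6 to 47.9 FPKM and Cdc34 at 34.3 to 43.4 FPKM, and none of 8 had an unadjusted p under 0.05. Cdc34 was 2.28 to 2.84 times its paralogue Ube2r2. Of the genes that encode ubiquitin, Ubb stood at 647 to 705 FPKM and Rps27a at 606 to 678 FPKM, and Fau, a ribosomal fusion of a ubiquitin-like protein, reached 626 to 687 FPKM. None of the 17 modifier genes tested had an unadjusted p under 0.05.

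Over the 11 lists of genes that act with E2 enzymes, 134 genes were tested and 2 had an unadjusted limma p under 0.05, Cul2 and Pias4, or 1.49% beside 4.83% of all genes tested. With limma-voom on recovered reads 6 did, or 4.48% beside 4.95%. None passed after adjustment with limma. The groups of 3 did not overlap, those of Cul2, Nploc4 and Herc1, or 2.24% beside 3.08% of all genes tested. Herc1, a giant HECT ligase, is named by the study among its differentially expressed genes, from its own comparison, which was not used here. It was read at 2.44, 2.62, 2.54 and 2.65 FPKM in Ct and 2.19, 2.24, 2.37 and 2.36 FPKM in CS-exposed libraries. Every CS-exposed library lay below every Ct library, with a log2 fold change of -0.16 and an SE of 0.11 (limma p = 0.187, adjusted p = 0.956, exact permutation p = 0.0286). The unadjusted p of Herc1 was 0.0406 where limma used no trend of variance on level. The RBR ligases, led by Rnf19b at 13.4 to 17.4 FPKM and Rnf14 at 13.8 to 16.7 FPKM, had 9 tested genes, and the HECT ligases, led by Nedd4 at 64.7 to 74.6 FPKM and Herc4 at 23.7 to 27.2 FPKM, had 21. Neither list had a gene with an unadjusted p under 0.05, and their median log2 fold changes were 0.04 and -0.02.

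The spread between pools set the precision of these comparisons. The SD within groups on the log2 scale had a median of 0.13 over the 27 members, against 0.17 over all genes tested, and 20 of the 27 were below that median. Since spread depends on level, members were also set beside genes of like level, in 10 equal bins of all genes tested by mean FPKM, and 15 of the 27 were below the median spread of their bin. Ube2d3 was the steadiest, at 0.05, with 1.85% of all genes tested having a smaller SD, and Ube2l6 at 0.29 and Ube2a at 0.26 were the most variable. Reads per library ran from 70 for Ube2l6 to 6952 for Ube2m, with a median of 797.5 over members and libraries. The coefficient of variation within groups was 1.35 to 6.41 times that of counting alone, highest for Ube2o, and above 2 times it for 21 of the 27, so for most members the spread between pools was larger than counting error.

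**Figure D4:**
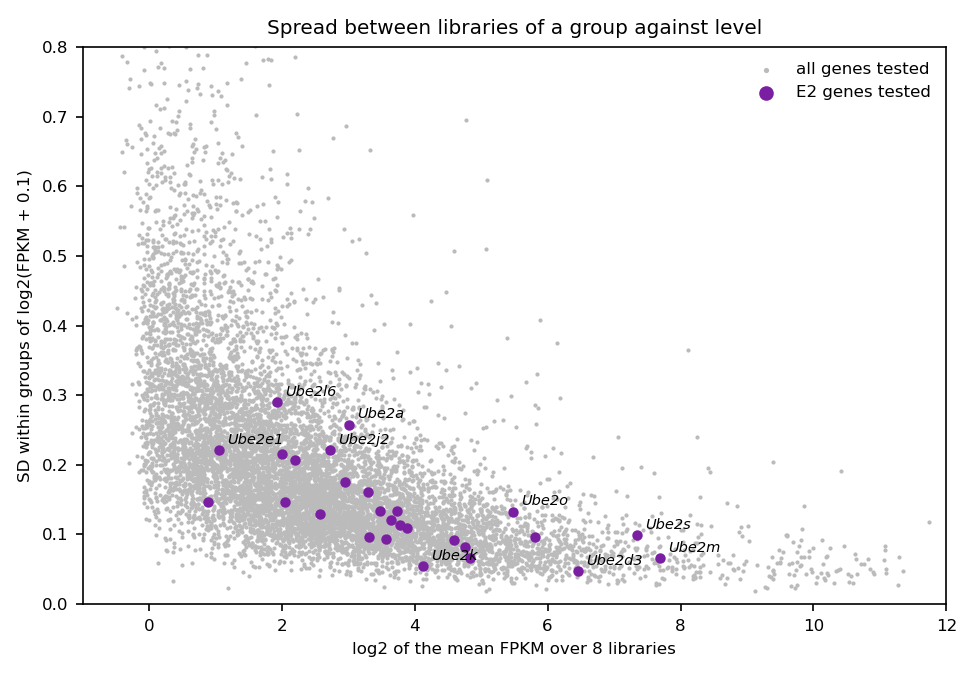
SD within groups of log2(FPKM + 0.1) against the log2 of the mean FPKM over 8 libraries, with grey points all genes tested (188 of them outside the plotted range) and purple points the 27 E2 genes. Ube2l6 and Ube2a lie high for their level, and Ube2d3 and Ube2k lie low.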

How the data were processed

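RNA-seq libraries from total RNA (NEBNext Ultra kit, 150-base reads) of 4 untreated Ct and 4 CS-exposed pools of lens FC were analysed. The submitters' notes name STAR 2.5, HTSeq 0.6.1 and DESeq2 with build GRCm38; the annotation release and the strand setting of counting are not given in the sources used here. The authors deposited FPKM values per library, which were used as they are, and group-mean FPKM, log2 fold changes and p-values of their own comparison, which were not used. Genes whose group mean reached 1.0 FPKM in Ct or in CS were tested with limma 3.58.1 (R 4.3.3, trended eBayes, two-sided) on log2(FPKM + 0.1), and p-values were adjusted over these genes (Benjamini-Hochberg). FPKM values fell on whole-read steps, and reads were recovered for 9772 of 9794 genes (99.8%, within 0.03 reads) and used for limma-voom and to compute counting error. Ratios of members were compared with exact permutation tests. The limma step was tested on simulated data with known changes. These changes were larger than any fitted for a member, and all genes had the same dispersion, so the power for these members was not tested.

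The members and gene lists were chosen with earlier results of these data known. Values in every library are given for the 6 members with the highest mean, the 3 with the largest fold change in each direction, any member with an unadjusted p under 0.05 or groups that do not overlap, and members of ratios with an exact p under 0.05. From the lists, genes with an unadjusted p under 0.05, the 2 highest genes and Herc1 are named. Other list genes are named outside this rule, beside the E2 they act with or for their values. Same-numbered Ct and CS libraries were not treated as pairs: the labels give no pairing beyond the number, although low or high Xist went with it, and the correlations of their deviations were 0.01, 0.08, 0.11 and 0.16. Coordinates, exon overlaps and coding sequences are from GENCODE M21, and copies are blastn 2.17.0 matches of at least 150 bases and 97% identity. Alternatives were other pseudocounts (0.01 and 1), filters (none and 5 FPKM), median centring, quantile normalization, eBayes without trend, limma-voom, a replicate block and leaving out each library, and, chosen after the data were seen, the Xist level as a covariate. Some genes that the naming rule or a list would name, among them 1 of the 27 tested members, are counted but not reported here by name.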

Additional observations from a re-analysis of the deposited data

Results flagged for a closer look

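In 4 of the 56 groups of 4 libraries formed by the 27 tested E2 genes and their summed level, 1 library stood far from the other 3, where chance flags about 1 in 20 groups, or 2.8 of 56. Ube2h was 15.7 FPKM in CS library 3, with the other CS-exposed libraries at 13.6 to 13.7 FPKM. Ube2q1 was 8.09 FPKM in Ct library 4, with the next lowest Ct library at 10.7 FPKM. Ube2f was 6.54 FPKM in Ct library 1, with the next highest at 5.41 FPKM. Ube2v2 was 1.67 FPKM in CS library 4, with the next lowest at 1.99 FPKM.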

How the results depend on the processing

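With all 8 libraries, 1 alternative gave an E2 member an unadjusted p under 0.05: the Xist level as a covariate, chosen after the data were seen, gave 1, Ube2e3, at 0.0446, or 3.70% of the members beside 4.97% of all genes tested. No such alternative gave groups that did not overlap, and over all alternatives the lowest adjusted p of a member was 0.906. Fold changes were recomputed only for the members whose values are given in every library, Ube2e3 included. Of these 232 values, 206 kept their sign and their side of the threshold, 14 changed sign and 12 came under 0.05. Fold changes near 0 changed sign: Ube2d3 to -0.0050 with median centring, -0.0061 with quantile normalization and -0.00047 with limma-voom, and Ube2o to -0.0029 with quantile normalization. Genes with an unadjusted p under 0.05 numbered 862 with no filter (4.1%) and 226 at 5 FPKM (4.69%), where other numbers of genes are tested. Those of the partner lists numbered 0 at 5 FPKM and 6 with limma-voom (Anapc10, Arel1, Cul2, Cul3, Herc1 and Pias4, or 4.48% beside 4.95% of all genes tested). Pias4 was above 0.05 with no filter, at 5 FPKM, with median centring, with quantile normalization and without the trend, at 0.0507 to 0.0612. The cause was not tested.

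Leaving out 1 library at a time gave 0 to 4 members with an unadjusted p under 0.05, against 4.28% to 5.35% of all genes tested. The 4 came without CS library 2 (Ube2a, Ube2e3, Ube2l6 and Ube2m), or 14.8% of 27 beside 5.15% of all genes tested. From 0 to 2 members had groups that did not overlap (up to 7.41% of the members, against 5.52% to 6.23% of all genes tested). Partner genes with an unadjusted p under 0.05 numbered 1 to 4, or 0.746% to 2.99% of those tested. From 0 to 2 ratios had an exact p under 0.05, and no member passed after adjustment. The fold change of Ube2s ran from -0.052 to 0.041, of Ube2d3 from -0.017 to 0.019 and of Ube2o from -0.055 to 0.057. The log2 ratio of Ube2f to Ube2m ran from -0.0018 to 0.13, and that of Ube2e1 to Ube2e3 from -0.23 to 0.021. The median log2 fold change of members ran from 0.0087 to 0.057.

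With the replicate number as a block, 522 genes, or 5.33% of those tested, had an unadjusted p under 0.05 (limma). Among them were 0 members and 2 partner genes, Cul2 and Pias4, or 1.49% of the partner genes tested. With sign flips within same-numbered pairs, 0 ratios had an exact p under 0.05, where 0.125 is the smallest exact p that 4 pairs allow. Among the tested members depth limits Ube2l6, Ube2e1 and Ube2v2 most, with 70 to 196 reads per library.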
